A study of Mus musculus with 14 samples.

Results

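Liver sinusoidal endothelial cells were followed through 10 genes that mark them, Stab1, Stab2, Clec4g, Lyve1, Pecam1, Kdr, Fcgr2b, Oit3, Dnase1l3 and Cdh5, taken by gene symbol from the 17552 genes of the deposited table. All 10 were found, and all had at least 100 counts in the groups together, as 13291 genes did. The RNA came from whole livers of male Apoe-deficient mice of the C57BL/6 strain. The labels give an age of 8 weeks. The mice were fed the diets for at least that long, so this is not read as the age at sampling. Every animal lacked apolipoprotein E and ate a purified Western diet with cholesterol and palm oil. The control group had this diet alone, and the erythrodiol group had it with erythrodiol, a triterpene of the olive, at 10 mg/kg. The labels give 8 weeks of feeding and the methods of the study a longer time. Each library was made from RNA pooled from 2 or 3 mice, with 7 libraries per group. The comparison asks whether erythrodiol was accompanied by a different level of endothelial transcripts.

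Sinusoidal endothelial cells line the liver capillaries. They carry open pores, lack a continuous basement membrane and remove waste molecules and immune complexes from the blood through scavenger receptors. When they lose these features in chronic liver injury they come to resemble capillary endothelium of other organs, a change called capillarisation. In whole liver, fewer cells of a type and less RNA per cell cannot be told apart. Some of the markers are also made elsewhere, Fcgr2b and Stab1 by macrophages, Lyve1 by lymphatic endothelium and some macrophages, and Pecam1 by leukocytes and platelets.

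The table holds 1 count per gene and group, the sum over its libraries, so that no value has a replicate error and no test between the diets could be made. Intervals below are exact 95% intervals for counting error only. The counts summed to 122889032 in control and 124686047 with erythrodiol. A control library held 34856340 to 55244294 clean reads, and an erythrodiol library 47669656 to 48058606. Reads with a single place in the genome made up 41.6% to 69.1% of a control library and 64.0% to 68.0% of an erythrodiol library. Control replicate 3 was lowest in clean reads and in the shares mapped to the genome and to transcripts, and it contributed 9.12% of the read pairs in the control sum. It cannot be taken out of the gene counts, and its part in the results was not tested.

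Together the 10 genes had 38007 counts in control and 42112 with erythrodiol, or 309 and 338 CPM (counts per 1000000 counts of the group). Their summed level was 1.09-fold higher with erythrodiol (counting interval 1.08 to 1.11) when each group was scaled by its total, but 0.945 times control when each gene was set against genes of like length. The median log2 ratio of erythrodiol to control over the 10 genes was 0.11, against 0.16 over all 13291 genes. Scaled by totals, 7 of the 10 genes were higher with erythrodiol and 3 were lower, where 71.2% of all genes were higher, but scaled by TMM, a mean trimmed of extreme genes, 4 were higher and 6 lower, where 50.7% of all genes were higher and 49.3% lower. By totals 28.8% of all genes were lower. At least 25% higher were 2 genes, Dnase1l3 and Kdr, where 24.4% of all genes were past that size. None was 20% or more lower, the same fold in the other direction, which 8.89% of all genes were. At the milder fold of 1.1, 5 of the 10 were higher against 53.6% of all genes, and 1, Clec4g, was lower against 17.8%. None of the 10 was 1.5-fold or 2-fold away in either direction. Among all genes 2.55% were 1.5-fold higher and 3.14% lower, and 0.218% were 2-fold higher and 0.549% lower. The counts of sinusoidal genes in each class were thus near the share over all genes.

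**Figure D1:**
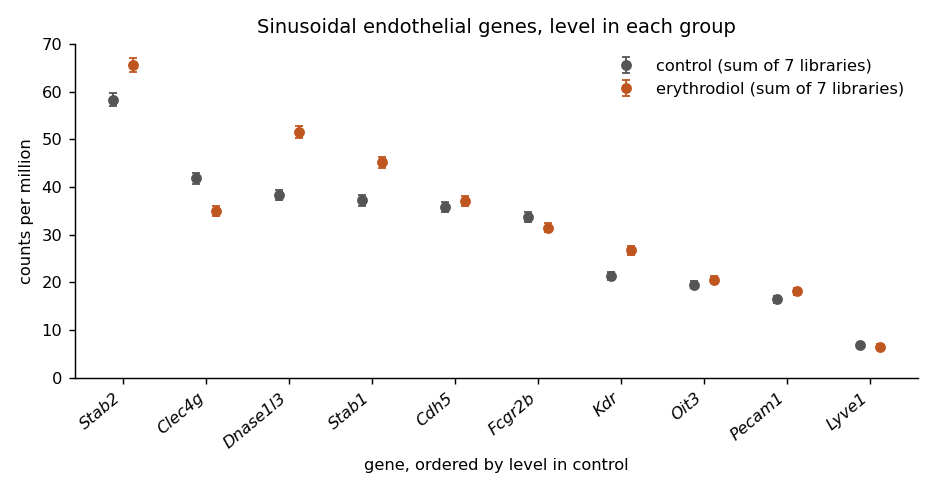
CPM of each gene in control (grey) and erythrodiol (orange), each point the sum of 7 libraries and each bar the 95% counting interval. Dnase1l3 shows the widest gap, from 38.3 to 51.6, and Clec4g goes the other way, from 41.9 to 35.02.

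The log2 ratios of all genes depended on the length of the gene model. In the shortest of 8 classes of equal size, from 333 to 1323 bases, the median log2 ratio was -0.14, and in the longest, from 5629 to 26655 bases, it was 0.32. In the classes between, the median was higher in each class than in the shorter one before it. Between the log2 of length and the log2 ratio, Pearson's r was 0.44 and Spearman's rho 0.43 across the 13291 genes. Across the 10 endothelial genes both were 0.77. The genes share the same libraries and are no replicates. Because of this slope with length every gene was also set against the median of the 500 genes nearest to it in length. So compared, 8 of the 10 genes were lower than their neighbours in length, where 50.1% of all genes were lower, and 2 were higher, where 49.9% were. Their median was then -0.10 on the log2 scale. At least 1.1-fold lower on this scale were 4 of the 10, Clec4g, Lyve1, Cdh5 and Stab2, against 29.9% of all genes, and 1, Dnase1l3, was that much higher, against 25.2%. None of the 10 was 20% lower, as 13.6% of all genes were, or 25% higher, as 5.93% were. None was 1.5-fold or 2-fold away. Of all genes 3.53% were 1.5-fold lower and 1.02% higher, and 0.466% were 2-fold lower and 0.15% higher.

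**Figure D2:**
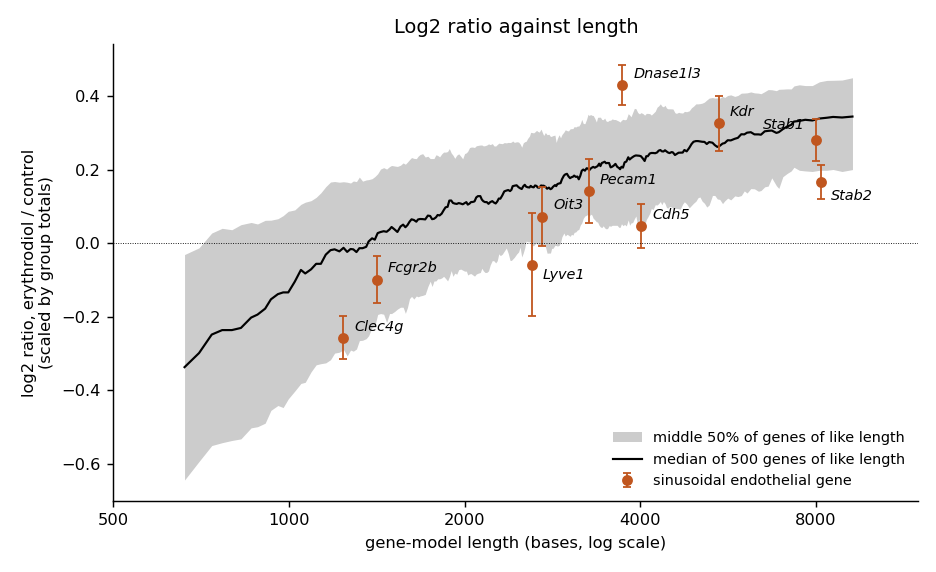
Log2 ratio (erythrodiol over control, by group totals) against gene-model length in bases on a log axis. The line and the grey band are the median and the middle 50% of 500 genes of like length, and orange points are the 10 endothelial genes with 95% counting intervals. The genes follow the slope, most of them below the line, with Dnase1l3 above the band and Lyve1, Stab2 and Cdh5 below it.

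The stabilins are large scavenger receptors that take up hyaluronan, modified lipoproteins and other waste from the sinusoid. Stab1 spans 31139017 to 31168651 of chromosome 14 (build GRCm38, as for all positions given). It had 4570 counts in control and 5634 with erythrodiol, or 37.2 and 45.2 CPM. Stab2, on chromosome 10 from 86841194 to 87008038, had 7173 and 8173 counts, or 58.4 and 65.5 CPM. Both were higher in the erythrodiol sum. The log2 ratio of Stab1 was 0.28 (counting interval 0.22 to 0.34) and that of Stab2 0.17 (counting interval 0.12 to 0.21). With the median gene set to 0, by TMM and without the 100 most abundant genes, Stab1 was at 0.12, 0.12 and 0.17 and Stab2 at 0.0054, 0.011 and 0.060, so that Stab2 was close to 0 in the first pair. At 7995 and 8152 bases they are the longest of the 10 genes, and against genes of like length both were lower, Stab1 at -0.054 (counting interval -0.11 to 0.0025) and Stab2 at -0.17 (counting interval -0.21 to -0.12) on the log2 scale. Since the stabilins have almost the same length, their ratio does not depend on the scaling and little on length. There were 1.57 Stab2 counts for each Stab1 count in control and 1.45 with erythrodiol, a change to 0.924 times control (counting interval 0.879 to 0.972).

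Clec4g and Fcgr2b, the most abundant of the genes per length, are short and were both lower with erythrodiol. Clec4g encodes LSECtin, a C-type lectin that binds sugar chains, and lies on chromosome 8 from 3707066 to 3720695. It had 5146 counts in control and 4367 with erythrodiol, or 41.9 and 35.02 CPM, a log2 ratio of -0.26 (counting interval -0.32 to -0.20). This was the lowest ratio of the 10 genes, and with a length of 1239 bases Clec4g was also lowest against genes of like length, at -0.24, where 27.2% of them had a lower ratio.

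Fcgr2b encodes the inhibitory receptor for IgG, through which these cells clear small immune complexes, and lies on chromosome 1 from 170960558 to 170976071. It had 4143 counts in control and 3926 with erythrodiol, or 33.7 and 31.5 CPM. The log2 ratio was -0.10 (counting interval -0.16 to -0.04), and -0.13 against genes of like length. Its counts alone among the 10 genes were not whole numbers, as for 20.5% of all genes, since the counting program divides reads that match more than 1 gene. The activating receptor Fcgr3, on the same chromosome from 171051169 to 171065915, also had counts that were not whole, 2682 in control and 2035 with erythrodiol. Which genes the divided reads also match was not determined, so that both counts are uncertain. The log2 ratio of Fcgr3, named here after its values were seen, was -0.42. Clec4g had 1.24 counts for each Fcgr2b count in control and 1.11 with erythrodiol, a change to 0.896 times control (counting interval 0.843 to 0.951). Their lengths are 1239 and 1415 bases, and the medians of genes of like length were -0.016 and 0.027, so the ratio is not free of length. The interval does not cover the uncertainty of the Fcgr2b count. Of 4 new coding transcripts that the authors assembled for Fcgr2b, 3 have 5 of their 9 exons at or just beyond the place of Fcgr3, between 171057691 and 171065936.

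The endocytic receptors can be compared in the sequence before their starts, where factors that set endothelial expression bind. RefSeq's table of promoters for GRCm38.p6 held 5 of the 10 genes, Stab1, Stab2, Clec4g, Fcgr2b and Kdr. The 250 bases before each start in that table were searched on both strands for AGGAA, a core of the sites of ETS factors, which are known for their role in endothelial genes. It was found in 4 of the 5 genes, and in 60.3% of the 32851 promoters. The letters AGATAA or TGATAA, bound by GATA factors, were found in none of the 5 and in 16.6% of all promoters. Other letters around GATA were not searched, such as AGATAG, which the Clec4g stretch below holds. CACCC, bound by KLF factors, was found in 3 of the 5 and in 52.0%. Below are the 120 bases before the outermost RefSeq start of the 4 receptors with an AGGAA match, all on the minus strand, at chr14:31168652-31168771 for Stab1, chr10:87008039-87008158 for Stab2, chr8:3720696-3720815 for Clec4g and chr1:170976072-170976191 for Fcgr2b. The starts in the promoter table lie inside the outermost start by 10 bases for Stab1, 96 for Stab2 and 44 for Clec4g and are the same for Fcgr2b, so that the searched windows reach past the end of the printed stretches of Stab1, Stab2 and Clec4g. Capitals mark AGGAA or its complement TTCCT where the whole match lies in the stretch.
Stab1: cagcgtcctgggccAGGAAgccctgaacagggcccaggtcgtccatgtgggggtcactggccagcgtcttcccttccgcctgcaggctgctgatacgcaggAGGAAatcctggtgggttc
Stab2: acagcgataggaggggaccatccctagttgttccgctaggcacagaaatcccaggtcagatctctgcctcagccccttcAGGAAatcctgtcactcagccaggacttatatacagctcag
Clec4g: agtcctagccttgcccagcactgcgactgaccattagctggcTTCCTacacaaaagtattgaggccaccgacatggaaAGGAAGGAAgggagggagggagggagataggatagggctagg
Fcgr2b: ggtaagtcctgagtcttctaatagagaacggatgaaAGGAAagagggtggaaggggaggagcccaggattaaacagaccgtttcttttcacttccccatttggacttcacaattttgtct
Each of the 4 stretches holds the letters at least once, but these genes were shown because they had a match. Kdr, which like the stabilins was higher by totals, had no AGGAA match in its 250 bases. A match of letters is a description and not a site, and nothing measured here bears on binding.

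Lyve1 binds hyaluronan and is shared with lymphatic vessels. It lies on chromosome 7 from 110850607 to 110862953 and had 830 counts in control and 809 with erythrodiol, or 6.75 and 6.49 CPM. The log2 ratio of -0.058 had a counting interval from -0.20 to 0.08, so that by totals no difference was detectable at this depth for the gene of fewest counts among the 10. Against genes of like length it was -0.21 (counting interval -0.35 to -0.068), and by TMM also -0.21. Oit3, a secreted product of nearly the same length, had 2.89 counts for each Lyve1 count in control and 3.17 with erythrodiol, a 1.09-fold change whose counting interval, 0.978 to 1.23, held 1. Of the lymphatic genes, all 4 had at least 100 counts, and their median log2 ratio relative to like length was 0.06. Among them Ccl21a, the chemokine of lymphatic endothelium, was lowest by totals, uncertain since it has close copies and its counts are not whole, with 1.22 and 1.12 CPM, while Prox1, which hepatocytes also make, was the highest and most abundant with 122 and 162.

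Kdr and the junction proteins define the vessel wall. Kdr, the main signalling receptor for VEGF-A, lies on chromosome 5 from 75932827 to 75979072 and had 2615 counts in control and 3328 with erythrodiol, or 21.3 and 26.7 CPM. Its log2 ratio was 0.33 (counting interval 0.25 to 0.40), or 0.060 against genes of like length (counting interval -0.01 to 0.13). Kdr was thus higher by totals and by each other scaling, and near the middle of genes of its length of 5464 bases.

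Pecam1, an adhesion molecule of endothelial junctions, on chromosome 11 from 106654213 to 106715281, had 2020 and 2260 counts, or 16.4 and 18.1 CPM. Cdh5, the cadherin of endothelial junctions, on chromosome 8 from 104101613 to 104144504, had 4406 and 4617 counts, or 35.9 and 37.0 CPM. For Pecam1 the log2 ratio was 0.14 (counting interval 0.05 to 0.23) and for Cdh5 0.047 (counting interval -0.01 to 0.11). Both were higher by totals but lower by TMM and against genes of like length, where Pecam1 was at -0.060 (counting interval -0.15 to 0.027) and Cdh5 at -0.19. The sign for Pecam1 and Cdh5 therefore rests on the scaling.

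Dnase1l3 and Oit3 encode secreted proteins. Dnase1l3 encodes an enzyme that digests DNA in the blood, lies on chromosome 14 from 7965187 to 7994760 and had 4704 counts in control and 6437 with erythrodiol, or 38.3 and 51.6 CPM. It was 1.35-fold higher (counting interval 1.30 to 1.40), a log2 ratio of 0.43. Dnase1l3 stood highest of the 10 on both scales, and 0.22 above genes of like length, of which 89.8% had a lower ratio. Oit3, a zona pellucida domain protein, on chromosome 10 from 59422960 to 59441779, had 2400 and 2561 counts, or 19.5 and 20.5 CPM. Its log2 ratio was 0.073 (counting interval -0.01 to 0.15) by totals and -0.081 against genes of like length, so that its sign too changed with the scaling. Cdh5, of a length close to that of Dnase1l3, served for a comparison that does not depend on the scaling. There were 1.07 Dnase1l3 counts for each Cdh5 count in control and 1.39 with erythrodiol, a 1.31-fold change (counting interval 1.23 to 1.38).

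**Figure D3:**
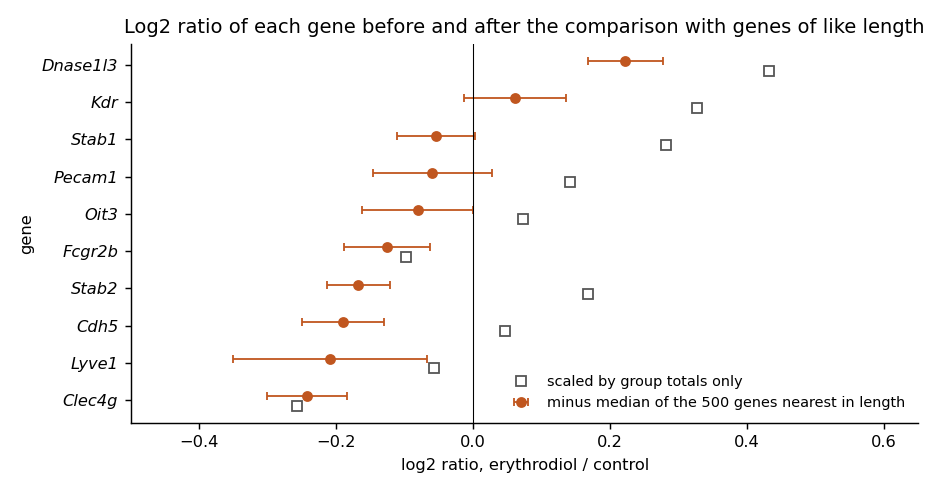
Log2 ratio (erythrodiol over control) for each gene, by group totals (open squares) and after subtraction of the median of the 500 genes nearest in length (orange, with 95% counting intervals). By totals 7 genes lie above 0 and after the subtraction 2, Kdr and Dnase1l3.

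Per length, the level in control, in CPM per kilobase, was 33.8 for Clec4g, 23.8 for Fcgr2b, 10.3 for Dnase1l3, 8.93 for Cdh5, 7.19 for Oit3, 7.16 for Stab2, 5.04 for Pecam1, 4.65 for Stab1, 3.89 for Kdr and 2.59 for Lyve1. In the erythrodiol sum the order of these levels was the same but for Stab2, at 8.04, before Oit3, at 7.56, and Stab1, at 5.65, before Pecam1, at 5.55. Of neighbours in that order, Oit3 and Stab2 in control and Stab1 and Pecam1 with erythrodiol did not differ beyond counting error. Among all genes with at least 100 counts the level per length of the 10 genes lay between the percentiles 34.0 of Lyve1 and 86.3 of Clec4g. Albumin, the main product of hepatocytes, had 80551 CPM in control and 77520 with erythrodiol, by which the tissue is liver.

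The authors assembled 18 new coding transcripts for 4 of the 10 genes, where 35.8% of all genes with at least 100 counts had any. Besides the 4 of Fcgr2b there were 2 for Stab1, with 66 and 68 exons, 5 for Stab2, with 25 to 28 exons, and 7 for Pecam1, with 14 to 16 exons. Those of Stab2 all lie between 86841210 and 86886595, in the part of the gene away from its start, and those of Pecam1 reach to 106750623, which is 35342 bases beyond the start of the gene in RefSeq. The transcripts were pooled over libraries and bear no count per group.

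Other genes of the endothelium were taken from lists of known markers. Of 9 further sinusoidal genes, 8 were higher by totals, where 71.2% of all genes were. At least 25% higher were 4, where 24.4% of all genes were, and none was 20% lower, where 8.89% were. Their median log2 ratio was 0.31, or 0.10 against genes of like length. On the latter scale 6 were higher and 3 lower, beside 49.9% and 50.1% of all genes. Flt4, the receptor for VEGF-C, was highest by totals, at 17.4 CPM in control and 23.5 with erythrodiol, and Ehd3, a protein of endosome traffic, was most abundant per length, at 37.9 and 50.4. The lowest was Mrc1, the mannose receptor that macrophages also make, at 50.9 and 47.0 CPM, a log2 ratio of -0.11 and of -0.39 against genes of like length.

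Of 18 pan-endothelial genes, 14 were higher by totals and 4 lower, beside 71.2% and 28.8% of all genes. At least 25% higher were 4, beside 24.4% of all genes. The median was 0.11, as for the sinusoidal genes, and -0.02 against genes of like length. On the latter scale 8 were higher and 10 lower, beside 49.9% and 50.1% of all genes. Eng, a coreceptor for TGF-beta and the most abundant per length, had 68.7 and 83.6 CPM, and the ratio was highest for Flt1, a decoy receptor for VEGF-A, at 0.41, and lowest for the sialomucin Emcn, at -0.29. Of 14 genes of large vessels and of capillarisation 12 had at least 100 counts. By totals 6 were higher and 6 lower, beside 71.2% and 28.8% of all genes. Their median was -0.01 and, against genes of like length, -0.13. Plvap, the protein of endothelial diaphragms, was most abundant per length with 56.7 and 68.6 CPM, while E-selectin, Sele, had the lowest log2 ratio, -0.51, at 118 and 84 counts. The highest was the connexin Gja4 at 0.30.

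All 6 genes of the endothelium at the central vein were higher by totals, where 71.2% of all genes were. At least 25% higher were 3, where 24.4% of all genes were. None was lower against genes of like length, where 50.1% of all genes were. These genes include the ligands by which the central vein keeps the surrounding hepatocytes in their zone. Their median log2 ratio was 0.31, and 0.13 against genes of like length. The highest was Kit, the receptor for stem cell factor, which mast cells and progenitors also carry, with 519 and 814 counts, a log2 ratio of 0.63. The lowest and most abundant per length was Rspo3, an enhancer of Wnt signals, with 746 and 841 counts. Its log2 ratio was 0.15, and 0.00036 against genes of like length.

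Ligands and coreceptors of the VEGF and angiopoietin systems, whose receptors include Kdr, Flt4 and Tek, were more spread. Of 9 genes 8 had at least 100 counts. By totals 5 were higher and 3 lower, beside 71.2% and 28.8% of all genes. Vegfa, which hepatocytes make, had 108 CPM in control and 163 with erythrodiol, a log2 ratio of 0.60 and of 0.40 against genes of like length, and was most abundant per length. The ratio was highest for Vegfd, at 0.85 with 156 and 286 counts, and lowest for Angpt1, at -0.52 with 185 and 131 counts. The values of Vegfa and of its receptor Kdr are thus given side by side, at 0.40 and 0.060 against genes of like length, with no test of a link.

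Markers of Kupffer cells, the macrophages within the sinusoids, were set beside the endothelial genes because these cells also make Mrc1, Fcgr2b and Stab1. Of 11 such genes 10 were lower with erythrodiol by totals, where 28.8% of all genes were, and 9 by at least 20%, where 8.89% were. Their median log2 ratio was -0.59, and -0.55 against genes of like length. Summed, they were at 1406 CPM in control and 948 with erythrodiol. The lowest was the scavenger receptor Marco, at 51.9 and 24.8 CPM, past 2-fold, and the most abundant per length was Cd5l, at 532 and 327, while Cd68 was highest with a log2 ratio of 0.04. All 11 genes had at least 100 counts in the groups together. The part of macrophage RNA in the lower Fcgr2b and Mrc1 was not tested. Set side by side, the medians against genes of like length were -0.10 for the 10 endothelial genes and -0.55 for the macrophage genes.

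Genes of stellate cells, which lie outside the endothelium, were at a median of 0.0016 by totals and -0.24 against genes of like length. All 9 were lower on the latter scale, between -0.42 and -0.079, where 50.1% of all genes were lower. Hepatocyte genes were at a median of 0.25 by totals and 0.14 against genes of like length. On the latter scale 7 of 10 were higher, where 49.9% of all genes were.

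**Figure D4:**
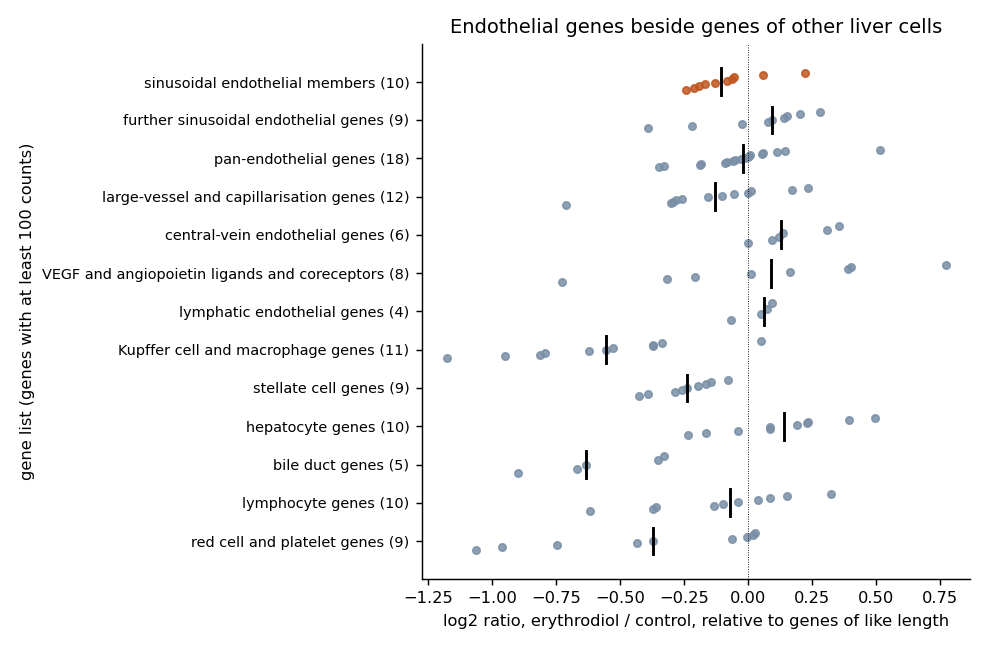
Log2 ratio of erythrodiol to control relative to genes of like length, each point a gene with at least 100 counts and each bar the median of a list, with the number of genes in brackets. The 10 endothelial genes (orange) lie between -0.24 and 0.22, and macrophage genes reach -1.18.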

How the data were processed

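Liver RNA of 14 libraries, 7 per group by the titles of the samples, was sequenced as read pairs. By the study's methods and the submitters' processing notes, the authors used HISAT for the genome, StringTie for new transcripts, Bowtie2 for transcripts and RSEM to count genes; versions are not given in the sources used here. The authors deposited expected counts, not normalized, summed over the libraries of each group. For each library they deposited the count of clean reads and the percent mapped. The deposited columns of log2 ratio, p-value and q-value hold the authors' own comparison and were not used, nor were tables of SNPs and splicing.

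Ratios were divided by group totals, and exact intervals were taken from the binomial split of rounded counts. Medians of lists used genes with at least 100 counts. Genes of like length were the 500 nearest. Named genes were the 10 members and, of each other list, the genes of highest and lowest ratio and of highest level per length, and those past 2-fold; others are named as such, and 1 gene of a list is not reported here. Members and lists were chosen with earlier results of these data known. Alternatives were other scalings, folds, count minimums, a pseudocount and other choices of like genes. TMM factors came from edgeR 4.0.16 in R 4.3.3, figures from matplotlib 3.10.9, and all else from scipy 1.17.1, pandas 2.3.3 and numpy 2.4.6 in Python 3.11.15. Coordinates are those of RefSeq on GRCm38.p6, the build of the deposited transcripts.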

Additional observations from a re-analysis of the deposited data

Results flagged for a closer look

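Control replicate 3 lay apart from the other control libraries in the share of clean reads mapped to transcripts, 64.3% against 74.4% in the nearest, and in the share mapped to the genome, 76.7% against 92.0%. The gap to the nearest library was 0.588 and 0.852 of the range of the group, above Dixon's 95% critical value for 7 samples. For a single measure chance flags about 1 in 20 groups. Clean reads, both mapped shares and the share with a single place in the genome were each screened in both groups, so chance flags more. The counts of the endothelial genes are sums that include this library.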

How the results depend on the processing

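The 10 endothelial genes stayed within 1.5-fold of control under each scaling, and the side of 0 on which their median fell depended on it. The median log2 ratio, 0.11 by group totals, was -0.055 when the median gene was set to 0, -0.050 by TMM, -0.00082 by totals without the 100 most abundant genes and -0.10 relative to like length. These scalings gave a summed ratio, 1.09 by totals, of 0.976, 0.980, 1.01 and 0.945, and 0, 0, 1 and 0 genes at least 25% higher in place of 2. By totals, 5 genes were at least 1.1-fold higher, and 0 genes 1.5-fold or 2-fold. The scalings moved all log2 ratios by 0.16, 0.16 and 0.11. With a pseudocount of 10 the median by totals was 0.11. Relative to like length, the median, -0.10, went from -0.12 to -0.10 with genes within 10% of the length, of like level or of like GC content (the last chosen after seeing the data), with minimums of 10 or 1000 counts and with a pseudocount of 10, and 8 genes were lower each time. Higher under each scaling were Kdr and Dnase1l3, and lower under each were Clec4g, Fcgr2b and Lyve1. No paired analysis was possible because the gene counts are sums over the libraries of a group, and no library could be left out.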

Other observations

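Most bile duct and blood genes had lower values in the erythrodiol sum. Of 6 bile duct genes 5 had at least 100 counts. All 5 were lower by totals and against genes of like length, where 28.8% and 50.1% of all genes were. Their medians were -0.55 and -0.63. Krt19, a keratin of the bile duct, was lowest at 2.28 CPM in control and 1.23 with erythrodiol, Sox9, a factor of duct cells, was highest with a log2 ratio of -0.09, and Spp1, osteopontin, was most abundant per length at 102 and 67.1. Of 9 genes of red cells and platelets 7 were lower by totals, where 28.8% of all genes were. Their median was -0.68, and -0.37 against genes of like length. On the latter scale 7 were lower and 2 higher, beside 50.1% and 49.9% of all genes. These genes are short, with a median length of 646 bases. Hba-a1 and Hba-a2, named here after their values were seen, were at 0.027 and -0.0041 against genes of like length. Hbb-bt and Ppbp were past 2-fold lower by totals, at 94.2 and 46.2 CPM and at 1.253 and 0.618 CPM, while Itga2b was highest at 0.24 and Hbb-bs, the most abundant per length, had 453 and 275 CPM. The split of reads between Hbb-bs and Hbb-bt, which are near copies, is uncertain. Lymphocyte genes had a median log2 ratio of -0.03, and -0.07 against genes of like length, with Ms4a1 lowest by totals at -0.50. Of the hepatocyte genes, Pck1 was highest at 0.65 and Fgb lowest at -0.17.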
